A study of Mus musculus with 6 samples.

Results

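The colony-stimulating factor (CSF) receptor genes *Csf1r*, *Csf2ra*, *Csf2rb*, *Csf2rb2*, *Csf3r* and *Flt3* were followed in lysozyme-expressing dendritic cells of the mouse Peyer's patch that carry the C5a receptor (C5aR+ LysoDCs). Members were all probes whose RefSeq accession names one of these 6 genes, which gave 9 of the 56605 probes on the array. By symbol they were 6 of 22911 genes. The rule for members used gene names and no measured value, although the gene family was picked with earlier results of these data known. The series asks whether C5a, the peptide cut from complement component C5, sets off signalling in these cells. Of 6 samples, 3 had no C5a (0 nM, called untreated) and 3 had received 100 nM recombinant C5a for 3 h. All 6, the untreated ones included, had been cultured with CSF-1 at 0.1 μg/mL and with a second factor at 0.5 μg/mL that the labels spell CFS-2 and that is read here as CSF-2, so no sample shows the receptors without these ligands. CD11c-positive cells were enriched with beads before the sort. Mouse strain and age, the culture time of the untreated samples, and whether replicates came from separate animals or sorts are not given in the sources used here, so p values reflect sample-to-sample spread only, some of which may be technical. In bulk RNA, fewer cells of a type and less RNA per cell cannot be told apart.

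CSF receptors tell blood and tissue phagocytes to survive, divide and differentiate. *Csf1r* encodes a receptor tyrosine kinase that binds CSF-1 and IL-34 and maintains monocytes and macrophages. CSF-2 (GM-CSF) binds an alpha chain encoded by *Csf2ra*, which pairs with the common beta chain encoded by *Csf2rb* and signals through JAK2 and STAT5. Mice carry a second beta chain gene, *Csf2rb2*, whose product serves the IL-3 receptor. In the gene table of assembly GRCm38.p6, *Csf2rb2* and *Csf2rb* are neighbouring protein-coding genes. *Csf3r* encodes the receptor of CSF-3 (G-CSF), best known for driving neutrophil production, and *Flt3* a receptor tyrosine kinase of dendritic cell progenitors and conventional dendritic cells.

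Promoter windows of RefSeq (GRCm38.p6) were at hand for 4 of the 6 genes. Those of *Csf2rb2*, detected on all 6 arrays, and of *Flt3*, detected on none, are shown because the genes differ in detection. Each runs 5′ to 3′ over the 250 bases before the start site on the minus strand, at chr15:78305722-78305971 for *Csf2rb2* and chr5:147400490-147400739 for *Flt3*. Capitals mark matches to GAGGAA or its reverse complement TTCCTC, a core recognised by PU.1, an ETS factor of myeloid cells.
Csf2rb2: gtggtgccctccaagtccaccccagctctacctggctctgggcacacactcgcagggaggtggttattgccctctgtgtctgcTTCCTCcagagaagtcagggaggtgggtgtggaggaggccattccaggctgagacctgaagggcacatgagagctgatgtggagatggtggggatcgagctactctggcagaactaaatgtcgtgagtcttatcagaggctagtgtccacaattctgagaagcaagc
Flt3: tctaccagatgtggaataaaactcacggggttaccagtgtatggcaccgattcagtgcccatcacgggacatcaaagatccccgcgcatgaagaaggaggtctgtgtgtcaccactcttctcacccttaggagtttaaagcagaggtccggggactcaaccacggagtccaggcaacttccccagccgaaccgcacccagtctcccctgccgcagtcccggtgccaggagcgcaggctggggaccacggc

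The *Csf2rb2* window held 1 such match, 167 bases before the start site, and the *Flt3* window held none. The windows of *Csf2ra* and *Csf3r* held 2 and 1. Among 32851 promoter windows of the same length, 23.3% held at least 1 match on either strand. On the same windows TTCNNNGAA, the spacing bound by STAT dimers, was found once in *Csf2rb2* and in none of the other 3 (7.02% of all windows). TGTGGT for RUNX factors (14% of all windows) and TTGCNNAA for C/EBP factors (9.56%) were found in none of the 4. A match is a string of letters and not a bound site.

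The arrays were dim and unequal in brightness. Between 2727 and 6959 of the 56605 probes (4.82% to 12.3%) were well above background on an array, by Feature Extraction's own flag. The 75th percentile of processed signal over the 2370 probes seen on every array was lowest in untreated 3 (109) and highest in untreated 2 (460), 4.23-fold apart, and no spot was saturated. Over the 4488 genes tested, arrays correlated at 0.844 to 0.960. Of these, 3276 had a symbol, and the rest were probes without a symbol, each counted as its own gene.

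Of the 6 receptor genes, 5 had a probe well above background on all 6 arrays, and *Flt3* had none on any. *Csf1r* probe A_55_P2025078 gave processed signals (arbitrary fluorescence units after background subtraction) of 437, 827 and 137 on untreated 1 to 3 and 655, 1849 and 174 on C5a 1 to 3. The CSF-2 alpha chain gene *Csf2ra* (A_51_P341465) gave 91.5, 506 and 84.0 untreated and 231, 405 and 94.8 with C5a. The dimmest array of each group, untreated 3 and C5a 3, also had the lowest *Csf1r* signal of its group, which is why levels are compared only after scaling.

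The common beta chain gene *Csf2rb* (A_52_P52618) gave 1512, 4124 and 394 in untreated 1 to 3 and 2595, 2728 and 566 with C5a (1 to 3). Its neighbour *Csf2rb2* (A_51_P146753) gave 262, 454 and 118 untreated and 259, 383 and 167 with C5a. *Csf3r* (A_55_P2070352) gave 483, 621 and 190 untreated and 653, 762 and 326 with C5a. For these 5 probes the weakest signal on any array was the 84.0 of *Csf2ra* on untreated 3, where the dimmest probe that counted as well above background was at 12.3. *Csf2rb* and *Csf2rb2* are related in sequence. Probe sequences were not used here, so whether a probe also takes up RNA of the other gene was not tested.

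The *Flt3* probe (A_66_P116412) gave 2.77, 2.41 and 2.65 in untreated 1 to 3 and 3.10, 2.93 and 4.26 with C5a (1 to 3). Across arrays, the dimmest probe that counted as well above background was at 10.5 to 12.8, so *Flt3* lay within background in both groups and no fold is given. Feature Extraction's weaker mark, a signal positive and significant against background, was set for *Flt3* on each of the 3 arrays with C5a and on 0 of the untreated ones. The same pattern was seen for 285 of the 48672 probes (0.586%) that were never well above background, and the reverse for 202 (0.415%). After scaling, the *Flt3* values of the groups overlapped.

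**Figure D1:**
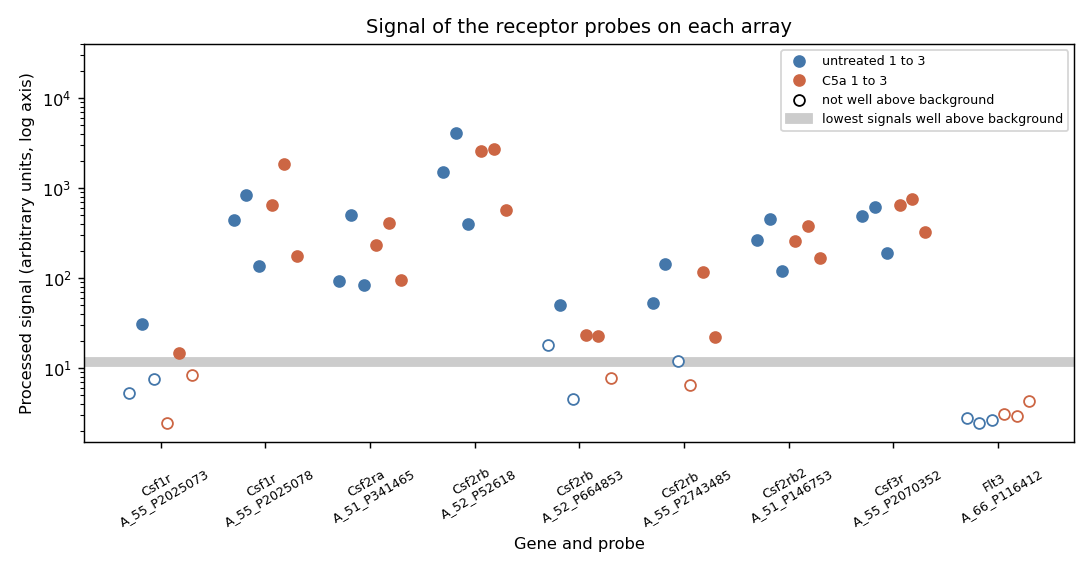
Processed signal (log axis, arbitrary units) of the 9 receptor probes, with 1 point per array, untreated in blue and C5a in orange; open points were not well above background, and the grey band spans the lowest signals well above background (10.5 to 12.8). One probe each of Csf1r, Csf2ra, Csf2rb, Csf2rb2 and Csf3r has only filled points, while all 6 Flt3 points are open and under the band.

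Other probes of *Csf1r* and *Csf2rb* were weaker. *Csf1r* probe A_55_P2025073 passed the flag in untreated 2 (30.5) and in C5a 2 (14.6) alone, with 2.46 to 8.39 on the other 4 arrays, and was not tested. *Csf2rb* probe A_55_P2743485 passed the flag on 2 untreated arrays and 2 with C5a, and A_52_P664853 on 1 and 2. Both were therefore measured on part of the arrays only.

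The cell type was checked on 18 genes of LysoDCs and mononuclear phagocytes, and 14 of these had a probe over background by the flag on 1 array or more. For a single gene, detection is given for its brightest probe. The tested probes of 10, among them *Lyz1*, *Lyz2*, *Itgax*, *Itgam*, *Cd74* and *H2-Eb1*, were so on all 6. *C5ar1*, which encodes the C5a receptor used for the sort, was detected on 1 untreated and 2 C5a arrays. *Cx3cr1*, *Mertk*, *Fcgr1* and *Timd4*, also markers of gut phagocytes, were detected on none. *H2-Aa* was detected on 2 arrays of each group, *Bst2* on 2 untreated and 3 C5a arrays, and *Adgre1* on 1 untreated and 3 C5a arrays. *Lyz1*, *Lyz2* and *Itgax* were thus detected throughout, while the receptor transcript was weak and other genes of the list were seen in part or not at all.

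*Csf3r* signal came without detectable neutrophil transcripts. Of 11 neutrophil genes with a named probe, 0 were well above background on any array, the defining *S100a8* and *S100a9* included. Their summed signal, in multiples of each array's 75th percentile, was 0.0958 to 0.340 without C5a and 0.0887 to 0.194 with C5a. These probes lay within background, so the sums also depend on array brightness and do not measure a neutrophil level. Conventional dendritic cell genes, beside the undetected *Flt3*, were sparse: 4 of 11 were detected on at least 1 array, *Zbtb46* on none and *Dpp4* on 1 array of each group. *Ccr7*, a chemokine receptor of migrating dendritic cells, was the 1 gene of that list detected on all 6 arrays, with a level of -0.71 ± 1.53 (SD, n = 3) without C5a and -0.70 ± 1.16 with C5a. The summed signal of that list was 0.611 to 2.41 without C5a and 0.591 to 1.63 with C5a.

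Among other cell types, 0 of 9 eosinophil, basophil and mast cell genes, 0 of 11 T and NK cell genes and 0 of 8 stromal and endothelial genes were detected on any array, and 1 of 10 epithelial genes was. B cell genes were detected in 2 of 9 cases. *Cd79b* was detected on 1 untreated and 2 C5a arrays, while *Cd79a* was on none. Of 7 plasmacytoid dendritic cell genes, 3 were detected on some arrays, and *Siglech* ran from -6.01 in C5a 1 to -0.44 in untreated 1. Plasma cell genes, several of which phagocytes also use, were all detected on at least 1 array. *Xbp1*, a factor of the secretory and stress response, was detected on all 6, whereas *Jchain*, the joining chain of secreted antibodies, was detected on 1 C5a array alone. No receptor difference below passed the test. The part of these cell types in the receptor values was not tested.

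**Figure D2:**
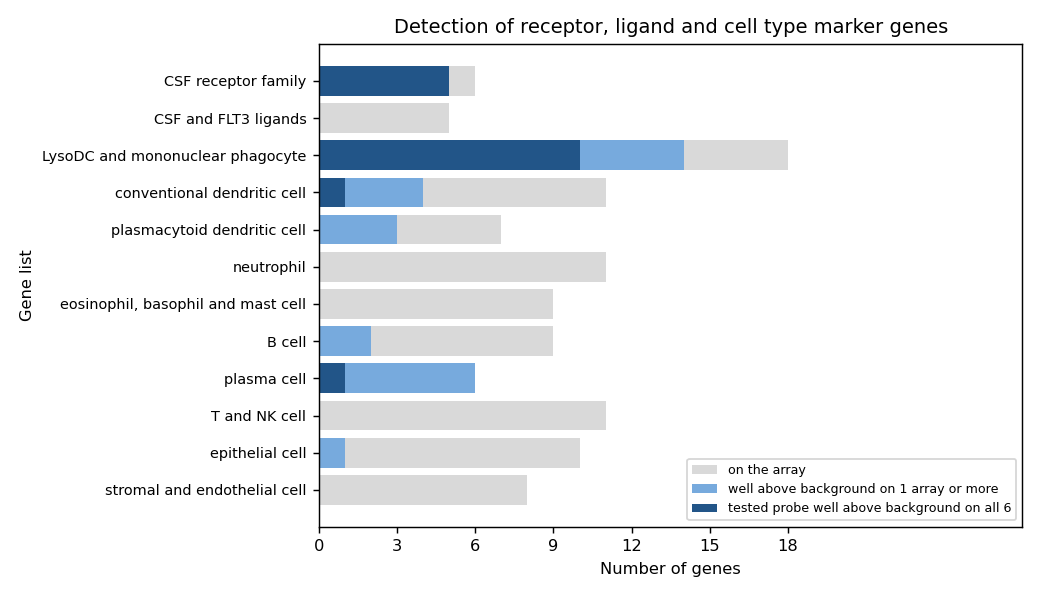
Number of genes per list with a named probe (grey), well above background on 1 array or more (light blue), and with the tested probe well above background on all 6 arrays (dark blue). The receptor list has 5 of 6 genes in dark blue, while the ligand and neutrophil lists show grey only.

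C5a moved none of the receptors past the test. Values were scaled to log2 signal relative to the array's 75th percentile among the 2370 probes seen on every array, so that 0 is the level of a fairly bright probe, and differences are C5a minus untreated with n = 3 per group. In limma with Benjamini-Hochberg adjustment over all 4488 genes, 0 genes passed (0%), 105 had an unadjusted p under 0.05 (2.34%), and 0 of the 5 measured receptors had either. All 5 had an adjusted p of 0.999. For no receptor did the 3 samples of a group lie clear of the other group, which was the case for 255 of all genes (5.68%), with C5a higher in 151 (3.36%) and lower in 104 (2.32%).

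*Csf1r* was at 1.42, 0.85 and 0.33 in untreated 1 to 3 and at 1.37, 2.29 and 0.18 with C5a (1 to 3). The group means were 0.87 ± 0.55 (SD) and 1.28 ± 1.06, a difference of 0.41 (SE 0.57, 95% interval -0.92 to 1.75), which is 1.33-fold with an interval of 0.528 to 3.36. C5a 2 alone was high and the groups overlapped. Without C5a 2 the difference was -0.09. Among numbered pairs, the pair numbered 2 differed by 1.45 and the others by -0.05 and -0.15.

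*Csf2ra* was at -0.84, 0.14 and -0.37 without C5a and at -0.14, 0.10 and -0.70 with C5a. Its difference was 0.11 (SE 0.36, 95% interval -0.74 to 0.97). The ranges of the groups nearly coincided, the sign turned without untreated 1 (-0.13) and without C5a 2 (-0.06), and a change of up to 1.95-fold upward or to 0.598-fold downward lies within the interval.

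*Csf2rb* was at 3.21, 3.17 and 1.86 in untreated 1 to 3 and at 3.35, 2.85 and 1.88 with C5a (1 to 3). Its group means, 2.74 ± 0.77 and 2.69 ± 0.75, differed by -0.05 (SE 0.52, 95% interval -1.28 to 1.18). The sample numbered 3 was the lowest in both groups. Pair by pair the differences were 0.14, -0.31 and 0.02. With the replicate number as a block the SE fell to 0.22 and the interval narrowed to -0.63 to 0.53, or 0.646-fold to 1.45-fold, and limma's adjusted p was 0.988. The sign of so small a difference turned with the scaling. With the percentile taken over all probes, which moved the median difference of all genes from 0.04 to 0.40, *Csf2rb* stood at 0.31, below that median.

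The other *Csf2rb* probes differed by -0.27 (SE 0.46) for A_52_P664853 and by -1.10 (SE 0.92) for A_55_P2743485, and neither passed. The larger value rested on C5a 1, where A_55_P2743485 was at -5.30 against -3.20 to -1.62 in the other 5 samples, although the brighter probe of the gene was at its highest in that sample. Both weaker probes were lower in untreated 3 than in untreated 1 and 2, as the brighter one was.

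*Csf2rb2*, the beta chain gene of the IL-3 receptor, was at 0.68, -0.02 and 0.12 without C5a and at 0.03, 0.02 and 0.11 with C5a, and untreated 1 alone stood high while the other 5 lay within -0.02 to 0.12. The difference was -0.21 (SE 0.29, 95% interval -0.88 to 0.46, or 0.543-fold to 1.38-fold). Without untreated 1 it was 0.00, and with the percentile over all probes it was 0.15, again below the median of all genes under that scaling (0.40). The order of the SEs depended on the replicate block: without it *Csf2rb2* (0.29) had a smaller SE than *Csf2rb* (0.52), and with it the SEs were 0.25 and 0.22.

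*Csf3r* was at 1.56, 0.43 and 0.80 without C5a and at 1.36, 1.01 and 1.08 with C5a. The C5a values lay inside the untreated range. The means, 0.93 ± 0.58 and 1.15 ± 0.18, differed by 0.22 (SE 0.35, 95% interval -0.61 to 1.05, 1.16-fold), and without untreated 2, the lowest sample, by -0.03.

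**Figure D3:**
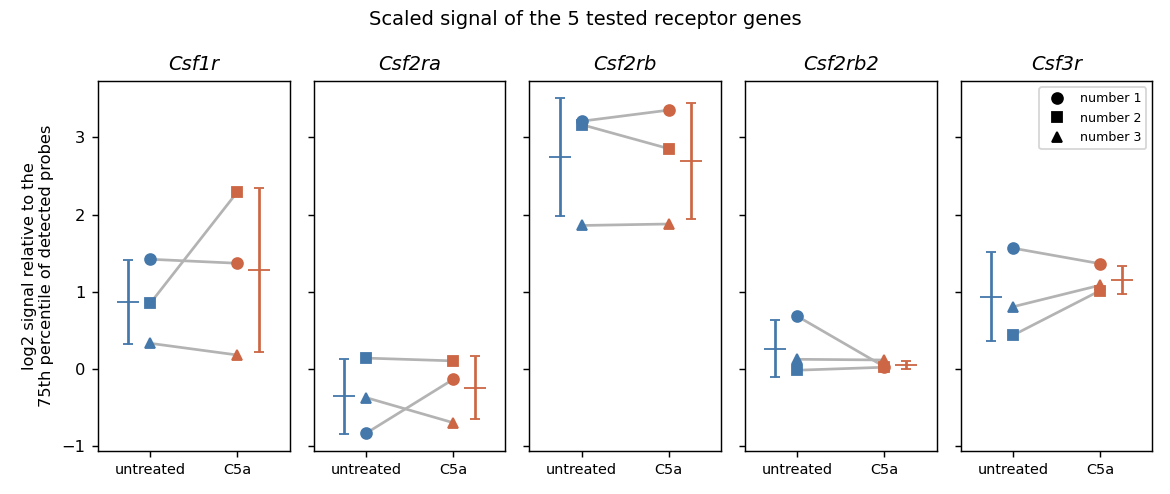
Scaled log2 signal of the 5 tested receptor genes in untreated (blue) and C5a (orange) samples; grey lines join samples of the same number, and bars at the sides give mean and SD (n = 3). The Csf2rb samples numbered 3 sit at 1.86 and 1.88, under the others, and the 3 C5a values of Csf2rb2 lie between 0.02 and 0.11.

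**Figure D4:**
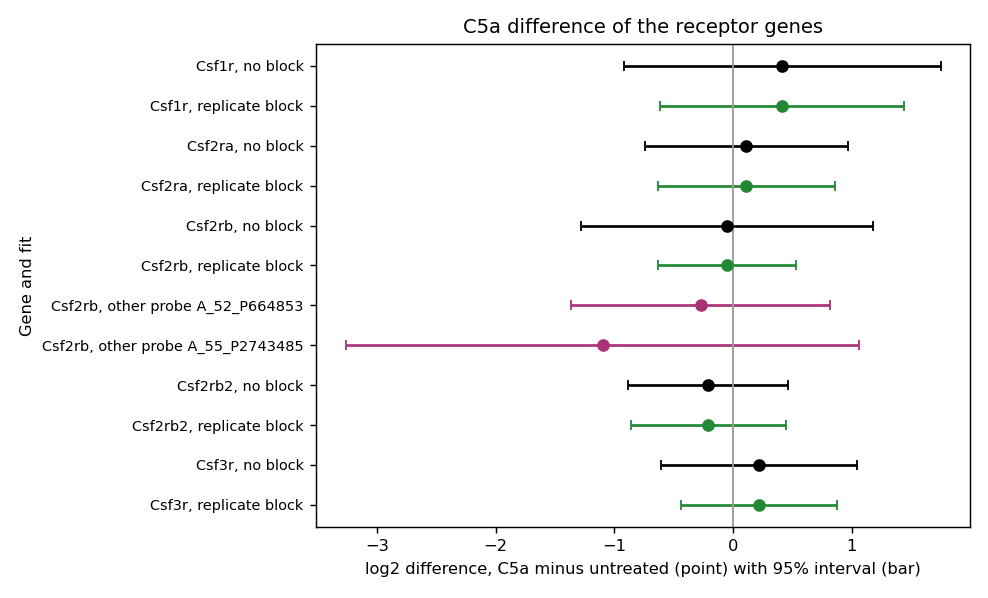
C5a minus untreated differences (points) with 95% intervals (bars) for each receptor without the replicate block (black), with it (green), and for the weaker Csf2rb probes (purple). Every interval spans 0, and that of Csf2rb narrows from -1.28 to 1.18 to -0.63 to 0.53 with the block.

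The replicate number was then tested as a factor in its own right, with treatment in the model, a test added after the values had been seen. In limma's F-test with Benjamini-Hochberg adjustment 0 of 4488 genes passed (0%), while 801 (17.8%) had an unadjusted p under 0.05. *Csf2rb*, with means of 3.28, 3.01 and 1.87 for numbers 1, 2 and 3, was among the latter (unadjusted p = 0.0087, limma adjusted p = 0.222). *Csf1r* had means of 1.39, 1.57 and 0.25 (limma adjusted p = 0.321), and the adjusted p of *Csf2ra*, *Csf2rb2* and *Csf3r* in this limma test lay between 0.385 and 0.715. The labels do not say what the number stands for. Array brightness went with it. The 75th percentile over probes seen on every array was 163, 460 and 109 in untreated 1 to 3. With C5a (1 to 3) it was 254, 377 and 154. Replicate number and array brightness cannot be told apart here.

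Across the 6 arrays the receptors did not share one profile. Pearson's r was 0.68 for *Csf1r* with *Csf2rb*, 0.66 for *Csf3r* with *Csf2rb2*, 0.35 for the CSF-2 receptor chains *Csf2ra* and *Csf2rb*, 0.16 for the beta chains *Csf2rb* and *Csf2rb2*, and -0.78 for *Csf2ra* with *Csf2rb2*. These describe 6 arrays that share scaling and brightness. Among named genes tested, the profiles most like *Csf1r* were those of *Krtcap2* (r = 0.98), *Mitf* (0.93), a transcription factor of myeloid cells and melanocytes, and *Zfp263* (0.92). In that order these genes were detected on 5, 4 and 5 arrays. For *Csf2rb* the nearest profiles were *Brk1*, *Oas1a* and *Cwc15* (0.99 each), detected on 4, 5 and 6 arrays. *Oas1a*, an interferon-induced antiviral enzyme, was at -2.06, -1.99 and -3.30 without C5a and -1.65, -2.40 and -3.31 with C5a, lowest in number 3 like *Csf2rb*.

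For *Csf2ra* the nearest profiles were *Saraf* (r = 0.99), *Zmiz2* and *Ncln* (0.98 each), detected on 6, 3 and 3 arrays. For *Csf2rb2* they were *2410004P03Rik* (0.997, detected on 4 arrays), *AI506816* (0.99, on 6) and *Nxf1* (0.98, on 5), which shared its high value in untreated 1. For *Csf3r* they were *Cox6b1* (0.99), *Trappc1* and *Ppdpf* (0.98 each), all detected on 3 arrays only. With 6 points and so many genes such values of r are a description.

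No ligand of these receptors was detected. *Csf1*, *Il34*, *Csf2*, *Csf3* and *Flt3l* were well above background on 0 of 6 arrays. Of the partners of the common beta chain, *Il3ra*, the IL-3 receptor alpha chain, was detected on 2 untreated arrays and 1 C5a array, at -3.51 ± 0.77 (SD) and -3.88 ± 0.65, a difference of -0.37 (SE 0.50). *Il5ra*, *Il3* and *Il5* were detected on none.

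The genes around the receptors likewise gave no call. Of 109 genes in 9 lists ordered by role, 51 were tested, 29 with a positive and 22 with a negative difference (median 0.03, against 0.04 for all genes). Of all genes tested, 54.9% had a positive difference. In limma with Benjamini-Hochberg adjustment 0 of the 51 passed, 1 had an unadjusted p under 0.05 (1.96%, against 2.34% of all genes), and 1, the adaptor gene *Dok1*, had groups that did not overlap (1.96%, against 5.68%).

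Among proximal kinases, 6 of 11 were tested, 3 on each side of 0. *Lyn*, a SRC family kinase, was detected on all 6 arrays and differed by 0.30 (SE 0.32). *Jak1*, a kinase shared by many cytokine receptors, differed by 0.81 (SE 0.63) and was detected on 1 untreated and 3 C5a arrays. *Jak2*, which the CSF-2 receptor uses, was detected on 2 arrays of each group and differed by 0.19 (SE 0.55). The value for *Syk*, a kinase downstream of ITAM adaptors, was -1.45 (SE 1.14) and rested on C5a 3, where its probe was not well above background (-6.01). The other 5 samples lay between -2.23 and -1.22.

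STAT factors carry the signal to the nucleus, and 3 of 5 were tested. *Stat5a* was detected on all arrays at -2.61, -2.02 and -0.84 without C5a and -2.46, -2.20 and -0.60 with C5a, a difference of 0.07 (SE 0.63). Number 3 was the highest in both groups, the reverse of *Csf2rb*. *Stat5b* differed by 0.15 (SE 0.56) and *Stat3* by -0.33 (SE 0.34). *Stat5b* was detected on 1 untreated and 3 C5a arrays, and *Stat3* on 2 untreated and 3 C5a arrays.

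Of 18 adaptors and ubiquitin ligases 9 were tested, 4 with a positive difference. *Tyrobp*, the DAP12 adaptor of phagocyte receptors, differed by 0.12 (SE 0.30) and *Grb2*, which links receptors to RAS, by -0.09 (SE 0.25). *Dok1*, a docking protein that restrains kinase signalling, was at -3.37, -3.10 and -3.05 without C5a and at -2.91, -2.70 and -2.80 with C5a, a difference of 0.37 (SE 0.25). Its limma adjusted p was 0.999. It was detected on 1 untreated array and on 3 with C5a, a count that also depends on the depth of each array. *Cbl*, the ubiquitin ligase that directs CSF-1 receptor turnover, differed by -0.69 (SE 0.68) and was detected on 1 untreated and 2 C5a arrays.

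In the PI3 kinase, AKT, RAS and MAP kinase list 9 of 21 were tested, 6 with a negative difference (median -0.16). *Akt1*, a survival kinase, differed by -0.10 (SE 0.29), *Pik3r1*, a regulatory subunit of PI3 kinase, by -0.32 (SE 0.42) and *Mapk3*, which encodes ERK1, by -0.56 (SE 0.46). *Mapk3* was detected on 2 arrays of each group. Of 14 phosphatases and feedback inhibitors 9 were tested, 6 with a positive difference (median 0.07). *Socs3*, an inhibitor induced by cytokine receptors including that of CSF-3, was among the steadiest at 1.03 ± 0.21 (SD) without C5a and 1.18 ± 0.06 with C5a, a difference of 0.15 (SE 0.25). *Socs1* differed by 0.68 (SE 0.66) and *Cish*, a STAT5 target, by 0.30 (SE 0.43). *Socs1* was detected on 2 arrays of each group, and *Cish* on 2 untreated and 3 C5a arrays.

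Transcription factors of the lineage had the highest median of the lists, 0.32, with 7 of 9 tested differences positive. Over all genes tested 54.9% were positive, with a median of 0.04. *Id2*, *Irf4* and *Irf8* passed the filter with more C5a than untreated arrays, which by itself favours a positive difference. The count is therefore no result about the list. *Id2*, a factor needed for several dendritic cell types, had the 1 unadjusted p under 0.05 of all lists, at -3.33, -2.62 and -3.77 without C5a and -2.66, -2.33 and -1.35 with C5a, a difference of 1.13 (SE 0.45). Its limma adjusted p was 0.999. It was detected on 1 untreated and 3 C5a arrays and the groups overlapped. *Cebpb* differed by 0.48 (SE 0.44), *Irf8* by 0.33 (SE 0.52), *Irf4* by 0.65 (SE 0.58), *Mitf* by 0.21 (SE 0.41) and *Runx1* by -0.80 (SE 0.50). *Irf8* and *Irf4* were each detected on 1 untreated and 2 C5a arrays, and *Mitf* and *Runx1* on 2 arrays of each group. *Spi1*, which encodes PU.1, was detected on 1 array of each group and was not tested.

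Survival and growth genes downstream of CSF receptors had 5 of 14 tested. *Mcl1*, a survival factor of phagocytes, was detected on all arrays and differed by 0.19 (SE 0.30). *Pim1*, a STAT5-induced kinase, differed by -0.51 (SE 0.57), with C5a 1 at -2.80 and the other 5 samples between -1.12 and -0.58. *Ccl17*, a chemokine that CSF-2 induces in dendritic cells, was at 1.91, 0.87 and -0.46 without C5a and 1.65, 1.40 and -0.04 with C5a, a difference of 0.23 (SE 0.69). Like *Csf2rb*, it was lowest in number 3 of both groups.

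**Figure D5:**
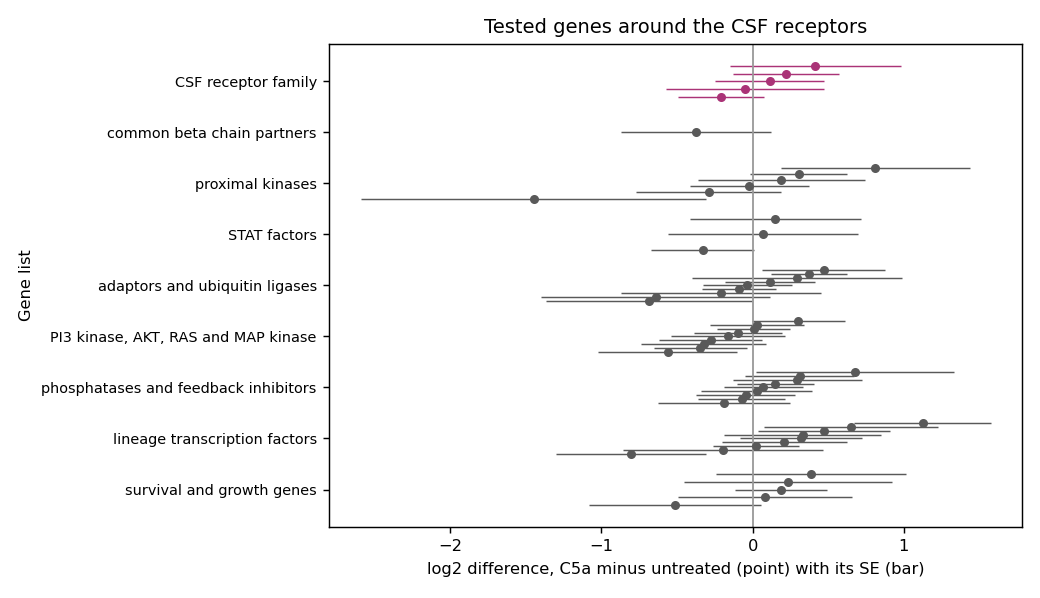
C5a minus untreated differences (points) with SE (bars) of the tested receptor genes (purple) and of 51 genes around them (grey), by role. Of the 51 genes, 29 lie right of 0 and 22 left, and 0 passed the adjusted test. The lowest point, Syk at -1.45, rests on C5a 3 alone, where the probe was not well above background.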

How the data were processed

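RNA of 6 samples was hybridised to 1-colour (Cy3) Agilent arrays, 1 per sample. Per the file headers, all came from 1 slide and scan, and the deposited intensities were made with Feature Extraction 10.10.1.1 (protocol GE1_1100_Jul11), with background subtracted within the array and no scaling between arrays. The flags used here were 0 or 1 per spot. The deposited series table holds log2 values; 98.1% of its differences between neighbouring columns lay within 0.01 of those of log2 processed signal after the 75th percentile of all probes was taken off per array. Its direction is thus known and its baseline per probe is not. Column medians were 0.17, -0.08 and 0.18 (untreated 1 to 3) and 0.01, -0.02 and 0.22 (C5a 1 to 3).

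Control spots were left out, and outlier spots too unless every spot of the probe was marked as an outlier. Spots of a probe were averaged, and RefSeq accessions matched to symbols of GRCm38.p6 (32994 of 56605 probes). The array design cites another build, mm9, so no probe coordinates are given. Values were scaled as stated, since few probes were detected. Kept were 4958 probes that the flag put well above background on 3 arrays or more, with the brightest probe per gene. Groups were compared with limma 3.58.1 in R 4.3.3 (lmFit, eBayes, Benjamini-Hochberg, threshold 0.05). The fit was also run on simulated data with shifts far larger than the receptor differences, so that run does not show the power for these. Deviations from group means of same-numbered samples correlated at 0.21, 0.27 and 0.38 (numbers 1, 2 and 3). Samples of different numbers gave -0.25 to 0.07. Array brightness also went with the number, lowest for number 3 and highest for number 2 in both groups. Whether the numbers mark shared animals or sorts was not tested. The number of arrays limits precision. Named were all members, the tested gene of smallest p and of highest signal in each role list, the brightest tested and the defining markers of each cell type, and the 3 profiles most like each receptor. Other genes were named for their role in the pathway after their values were seen. Members and lists were chosen with earlier results of these data known.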

Additional observations from a re-analysis of the deposited data

How the results depend on the processing

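No receptor passed limma under any alternative (lowest adjusted p 0.927). The sign turned in 1 of 15 alternatives for *Csf1r* and for *Csf3r*, 2 of 15 for *Csf2ra*, 4 of 15 for *Csf2rb2* and 6 of 17 for *Csf2rb*. These counts overstate how stable the signs are. Changing the filter, adding the replicate block or fitting every kept probe reuses the brightest probe's values, so its difference could not change. The deposited series table nearly repeats the scaling over all probes. With the percentile taken over all probes *Csf1r* was at 0.78, *Csf2ra* at 0.47, *Csf3r* at 0.58, *Csf2rb* at 0.31 and *Csf2rb2* at 0.15, while the median of all genes moved to 0.40. With the deposited series table *Csf2rb* was at 0.31 and *Csf2rb2* at 0.16. With normexp (offset 50) *Csf2rb2* was at 0.013. With the slide row as a term, which sets C5a 1 alone against the 3 untreated samples, *Csf2rb* was at 0.61. Leaving out each sample in turn, differences ran from -0.093 to 0.96 for *Csf1r*, -0.13 to 0.36 for *Csf2ra*, -0.49 to 0.36 for *Csf2rb*, -0.35 to 0.0012 for *Csf2rb2* and -0.031 to 0.53 for *Csf3r*. The cause was not tested. With 1 sample of each number per group, the replicate block cannot move a difference (*Csf1r* 0.41, *Csf2rb* -0.05). It changed no call. Without the filter on dim probes limma called 47 genes, 42 of them well above background on at most 1 array, with 0 receptors and 0 of the surrounding genes among them. Signal over background limits what can be said of *Flt3* and the ligands.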
